A study of Homo sapiens with 12 samples.

Results

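The transcripts described here are 10 genes of the integrated stress response, the axis of the transcription factor ATF4 and its targets: ATF4, ATF5, ATF3, DDIT3, DDIT4, ASNS, TRIB3, CHAC1, PPP1R15A and PPP1R15B. They were taken by name from the 59385 gene names of the count table, and all 10 were among the 18166 genes that passed the filter on low counts. The genes were grouped as stress response genes with upstream open reading frames (uORFs), but on the canonical transcripts of GENCODE 44 only 6 of the 10 had an ATG in the 5' UTR. Each gene is therefore described with what its own leader holds.

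The libraries came from HEK293T, a human embryonic kidney cell line, grown as 2 lines that each carried a short hairpin RNA (shRNA) under the control of doxycycline (Dox). In shPRRC2B cells the shRNA targeted PRRC2B, an RNA-binding protein, and in shCtrl cells it was a non-silencing control. Both lines were induced with Dox for 36 h, and total RNA and the pooled RNA of the polysome fractions of a sucrose gradient were sequenced after poly(A) enrichment, with 3 biological replicates for each of the 4 combinations of line and fraction. Each line was grown from a single clone, so the shRNA and the clone cannot be told apart. No agent added to induce the stress response is named for any of the 12 libraries. The cells for polysomes received cycloheximide for 10 min before lysis. Since no group was without Dox, whether Dox itself altered the levels of these genes was not tested.

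In the integrated stress response, kinases that sense amino acid shortage, double-stranded RNA, heme shortage or unfolded proteins phosphorylate the alpha subunit of the initiation factor eIF2, which lowers initiation on most mRNAs. A small group of mRNAs with uORFs, ATF4 foremost, are translated better under these conditions, since ribosomes then pass the inhibitory uORF more often. ATF4 in turn switches on genes of amino acid supply, redox balance and cell death, and PPP1R15A and PPP1R15B bring a phosphatase to eIF2 that ends the response.

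The uORF starts below are shown because they are the sequence feature after which these mRNAs were grouped, and they differ between the members. They were read from GRCh38 with the GENCODE 44 canonical transcripts, 9 bases before the ATG and 18 after it. Capitals mark the ATG, and the whole uORF with its stop codon where it ends within the window.
ATF4 first uORF, chr22:39520577-39520606, plus strand, exon 1: cgcccacagATGTAGttttctctgcgcgtg
ATF4 second uORF, chr22:39520639-39520668, plus strand, exon 1: acggccaccATGGCGTATTAGgggcagcag
ATF5 first uORF, chr19:49929265-49929294, plus strand, exon 1: gccccggccATGGCTCTGTAGcctcgaccc
DDIT3 first uORF, chr12:57520460-57520489, minus strand, exon 1: gagcgtatcATGttaaagatgagcgggtgg
PPP1R15A second uORF, chr19:48872545-48872574, plus strand, exon 1: gagggtgagATGaacgcgctggcctcccta
PPP1R15B second uORF, chr1:204411622-204411651, minus strand, exon 1: cccgccaggATGgaagtcgcatcagtcgcc

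ATF4 had 3 upstream ATGs and ATF5 had 2. The first uORF of ATF4 was a start codon followed directly by a stop, which ATF5 lacked. Both mRNAs had a uORF of 3 codons, followed by a uORF of 59 codons that ran in another frame across the start of the main coding sequence. The long uORF began 97 nt before the main start in ATF4 and 124 nt before it in ATF5. DDIT3 had 3 upstream ATGs, of which the first opened a uORF of 34 codons that ended before the main start and the third began a uORF of 73 codons that crossed it. In TRIB3, PPP1R15A and PPP1R15B there were 2 uORFs each, and all of these ended before the main start. The uORFs of PPP1R15A had 22 and 26 codons, and those of PPP1R15B had 8 and 51 codons. ATF3, DDIT4, ASNS and CHAC1 had no upstream ATG on the canonical transcript. Among 20020 canonical transcripts of protein-coding genes, 41.5% had at least 1 upstream ATG. Other transcripts of these genes were not searched.

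**Figure D1:**
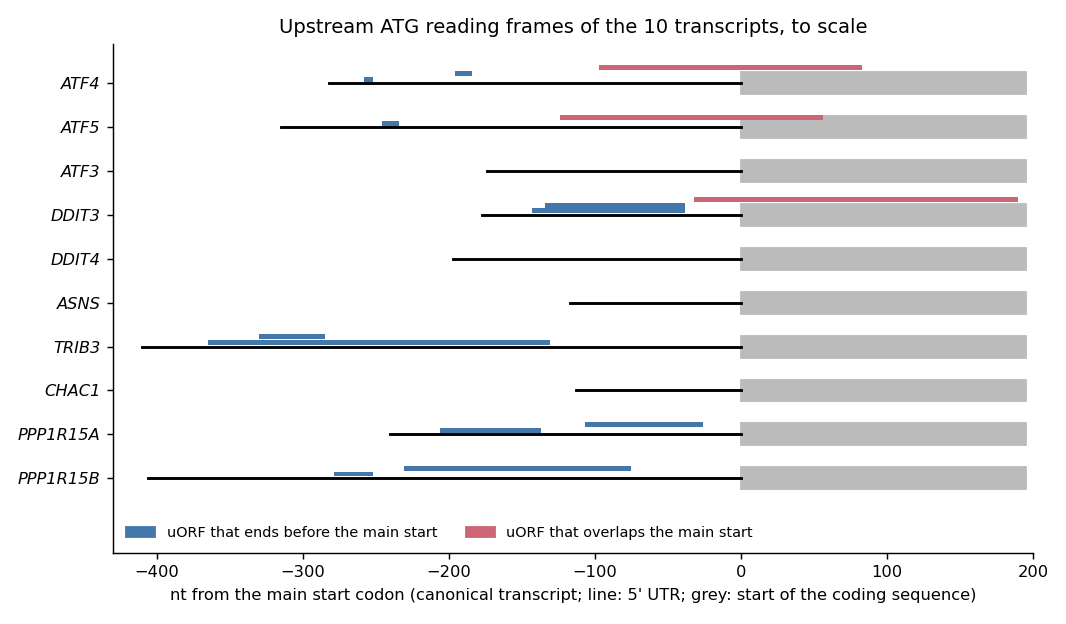
The 5' UTR of each canonical transcript (black line) is drawn to scale in nt from the main start codon, with the coding sequence in grey and each upstream ATG reading frame as a bar. Red bars, in ATF4, ATF5 and DDIT3, overlap the main start, blue bars end before it, and ATF3, DDIT4, ASNS and CHAC1 have no bar.

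Total RNA libraries held between 9855734 and 20837542 counts and polysome libraries between 12434157 and 15794787. PRRC2B itself was lower in shPRRC2B cells in every library of both fractions, with a log2 change of -1.49 ± 0.17 (SE) in total RNA and an adjusted p of 4.25e-06 in the quasi-likelihood test of edgeR. Of 6 genes fixed as HEK293T markers, 5 were detected in all libraries, while LHX1 was at most at 0.326 CPM. CPM are counts per 1000000 counts of a library whose size was scaled by TMM, as defined below. PTPRC, CD3E, ALB, KRT14 and HBB, markers of other cell types, were at most at 0.651 CPM, and COL1A1 lay between 2.93 and 33.9 CPM. The first polysome library of each line stood apart from the other 2: the chi-square of the counts per degree of freedom was between 33.3 and 64.2 for pairs with it and between 12.4 and 19.1 for pairs without it. The median log2 difference of the 10 genes from the mean of the other 2 libraries was -0.83 in the first polysome library of shCtrl cells and -0.49 in that of shPRRC2B cells. Whether this difference comes from the cells, the gradient or the library was not tested. The comparisons were therefore also computed without both of these libraries, an alternative chosen after the data were seen.

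ATF4 was the most abundant of the 10 mRNAs in all 4 groups. Per kb of transcript and after scaling by TMM (the trimmed mean of M-values, over all 12 libraries), its level in total RNA of shCtrl cells was 364 ± 19.5 CPM per kb (SD, n = 3). DDIT4, whose product inhibits the kinase mTORC1, came next with 140 ± 26.4 CPM per kb, and then ATF3 with 24.8 ± 2.48 CPM per kb. The libraries of these 3 genes did not overlap in that order. PPP1R15B, TRIB3 and PPP1R15A followed between 17.4 and 11.5 CPM per kb, where TRIB3 and PPP1R15A overlapped. DDIT3, ASNS, CHAC1 and ATF5 formed the lowest group, between 5.62 and 3.99 CPM per kb, and each overlapped its neighbour in the order. In total RNA of shPRRC2B cells the first 6 places were held in the same order, with ATF4 at 233 ± 9.82 CPM per kb, and ASNS came last with 1.64 ± 0.183 CPM per kb. In polysome RNA of shCtrl cells ATF4 reached 1981 ± 305 CPM per kb, and DDIT4, DDIT3, TRIB3, CHAC1 and ATF3 all overlapped with their neighbours between 75.1 and 33.9 CPM per kb. The place of ASNS in these orders is uncertain. In the annotation read for overlaps, a long noncoding gene covers 99.5% of the canonical ASNS exons. Read pairs that fit several genes were not counted, so the ASNS level may be too low. That annotation is later than the one used for counting, so how many ASNS reads were left out is unknown. In bulk RNA a lower level in all cells and fewer cells with the transcript cannot be told apart.

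**Figure D2:**
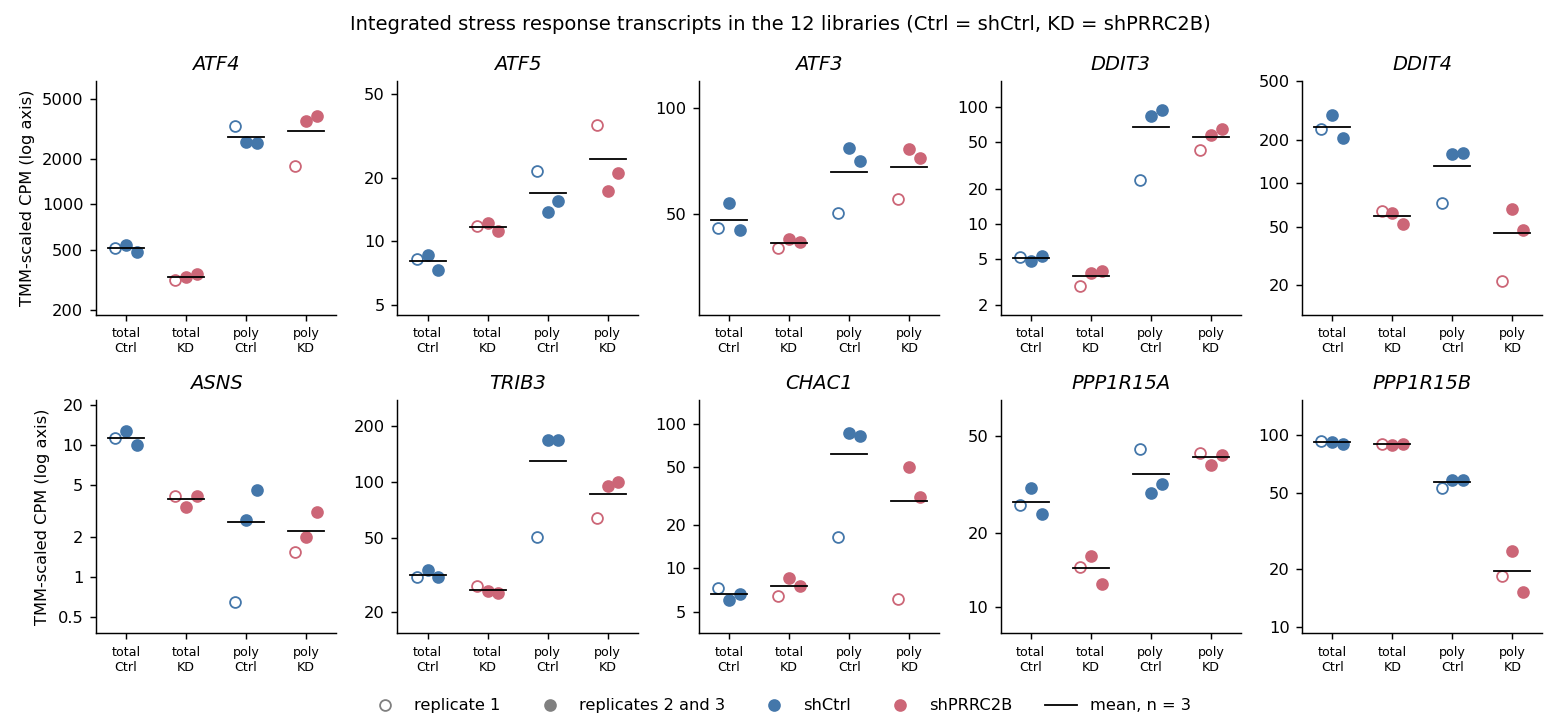
TMM-scaled CPM (log axis, own range per gene) of each gene in the 12 libraries, as points for the libraries and a line for the mean of 3; open points are replicate 1. In ATF3, DDIT3, DDIT4, ASNS, TRIB3 and CHAC1 replicate 1 is the lowest polysome library of both lines, and in PPP1R15B the polysome libraries of shPRRC2B cells, at 15.2 to 24.8 CPM, all lie below those of shCtrl cells at 52.7 to 58.4 CPM.

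Within shCtrl cells, 5 of the 10 mRNAs were called higher in polysome than in total RNA and 3 lower. For a call, the log2 change had to exceed 0.5 in either direction at an adjusted p below 0.05, and over all genes tested 32.5% were called higher and 39.8% lower. DDIT3 was enriched most, with a log2 value of 3.73 ± 0.36 (SE, adjusted p = 4.12e-08) and a ratio of mean CPM of 13.3. DDIT3 encodes CHOP, a transcription factor of the C/EBP family that promotes cell death. CHAC1, an enzyme that breaks down glutathione, followed with 3.19 ± 0.56, ATF4 with 2.44 ± 0.22, TRIB3, a pseudokinase induced by ATF4 and CHOP, with 2.02 ± 0.30, and ATF5 with 1.08 ± 0.23. In that order the 5 values lay above those of 98.3%, 95.8%, 90.0%, 85.6% and 73.1% of genes, without a correction for transcript length. Over 14 other settings, that correction among them, DDIT3 was as low as 1.64, CHAC1 1.68, ATF4 1.13 and TRIB3 1.02. These genes stayed called in each setting. Called lower were ASNS (-2.13 ± 0.40), DDIT4 (-0.90 ± 0.30) and PPP1R15B (-0.70 ± 0.14). The ASNS value rests on few reads, between 7 and 348 counts in a library, with an unknown number left out through the overlapping gene. Without the second total RNA library of shCtrl cells DDIT4 was no longer called (-0.76, adjusted p = 0.0541), and with the trend of the changes with transcript length removed PPP1R15B turned to a log2 value of 0.44. ATF3 (0.45 ± 0.16) and PPP1R15A (0.38 ± 0.16) were below the size a call required. ATF3 passed it without the first shCtrl polysome library (0.58) or the second shCtrl total library (0.53).

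In shPRRC2B cells 7 were called higher in polysome than in total RNA, against 36.6% of genes tested, and 1 was called lower, against 42.3%. DDIT3 was again highest (3.96 ± 0.37), followed by ATF4 (3.21 ± 0.23), CHAC1 (1.95 ± 0.55), TRIB3 (1.71 ± 0.30), PPP1R15A (1.50 ± 0.17), ATF5 (1.07 ± 0.23) and ATF3 (0.71 ± 0.16), while PPP1R15B was lower (-2.19 ± 0.15). CHAC1 was not called without the second polysome library of this line (1.23, adjusted p = 0.0557), where DDIT4 (-0.40 ± 0.31 over all libraries) was called lower (-0.84). CHAC1 was also not called in these cells with the length trend removed (0.44, adjusted p = 0.47), and it was at 0.20 with the replicate block added. ATF5 was then called in neither line, at 0.43 in shCtrl (adjusted p = 0.122) and 0.23 in shPRRC2B cells (adjusted p = 0.385). ASNS (-0.81 ± 0.41) was called lower without the first or the third shCtrl polysome library (-0.88 each) or the third of shPRRC2B cells (-1.19). DDIT4 and ASNS were both called lower in shPRRC2B cells with libraries scaled by total counts (-1.36 and -1.76) or the length trend removed (-1.59 and -1.26). Both were also called with every gene that had a count (-0.59 and -0.99). Of 14 other settings, 5 changed the outcome of DDIT4 and 7 that of ASNS. The direction between fractions rests on the scaling for the less enriched genes. The median of all genes was -0.22 in both lines with TMM and fell to -1.22 in shCtrl and -1.16 in shPRRC2B cells when libraries were scaled by their total counts. With that scaling ATF3 was at -0.55 and PPP1R15A at -0.62 in shCtrl cells, ATF3 was at -0.24 in shPRRC2B cells, ATF5 was called in neither line (0.08 and 0.14), and CHAC1 was at 0.99 in shPRRC2B cells (adjusted p = 0.0944). DDIT3, ATF4 and TRIB3 were called higher in both lines also with that scaling. Over the 14 other settings, the length correction among them, their lowest values in shPRRC2B cells were 1.55, 1.54 and 0.76, all called. Of the 6 mRNAs with an upstream ATG, 4 were called higher in polysomes in shCtrl cells and 5 in shPRRC2B cells with TMM, and of the 4 without one, 1 and 2 were. Over all genes tested 32.5% and 36.6% were called higher. The shares among all genes with and without an upstream ATG were not computed, so no difference between them is read from these counts. With scaling by total counts or the length trend removed, 4 of the 10 were called higher in each line.

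**Figure D3:**
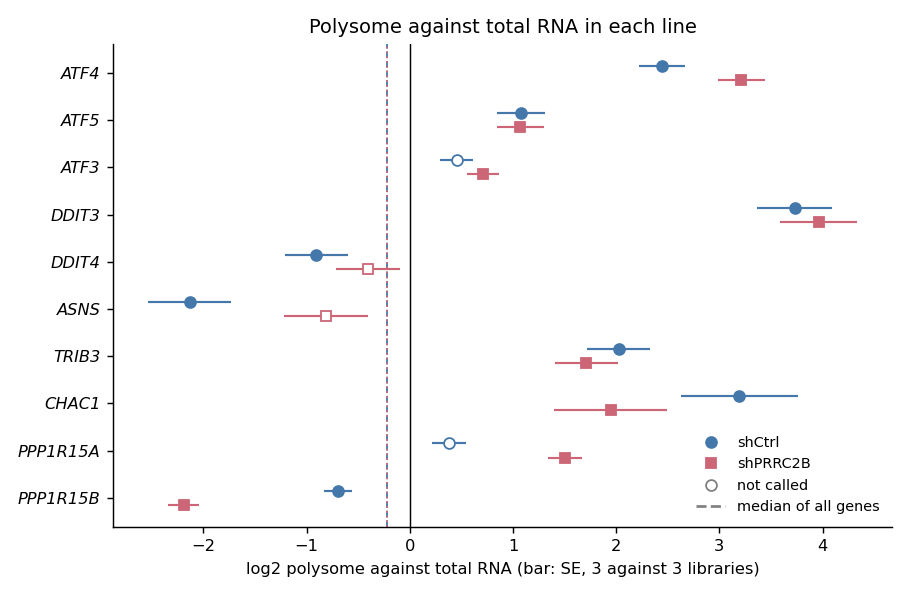
The log2 value of polysome against total RNA with its SE (3 against 3 libraries) for the 10 genes in shCtrl (circles) and shPRRC2B cells (squares), open where not called, with the median of all genes at -0.22 as vertical lines. DDIT3, CHAC1, ATF4 and TRIB3 lie above 1.5 in both lines, PPP1R15A and PPP1R15B differ most clearly between the lines, and the small positive values of ATF3 (both lines) and PPP1R15A (shCtrl) turn negative when libraries are scaled by total counts.

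Between the lines, the question was whether knockdown of PRRC2B altered the abundance of these mRNAs or their translation efficiency (TE), which is the polysome-to-total ratio. In total RNA 4 of the 10 were called lower in shPRRC2B cells, against 14.1% of all genes tested, and the other 6 were not called. Those called were DDIT4, ASNS, PPP1R15A and ATF4, and the median of the 10 was -0.39 against 0.04 for all genes. In polysome RNA 2 were called lower, PPP1R15B and DDIT4, against 21.4% of genes. In TE 1 was called higher, PPP1R15A, against 10.7% of genes, and 1 lower, PPP1R15B, against 16.4%. Without the first polysome library of both lines, 3 were called higher in TE, against 14.9% of genes in that fit, and 3 lower, against 22.0%, while 5 were called lower in polysome RNA, against 25.3%. The 3 comparisons share libraries, so their values for a gene are not independent.

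**Figure D4:**
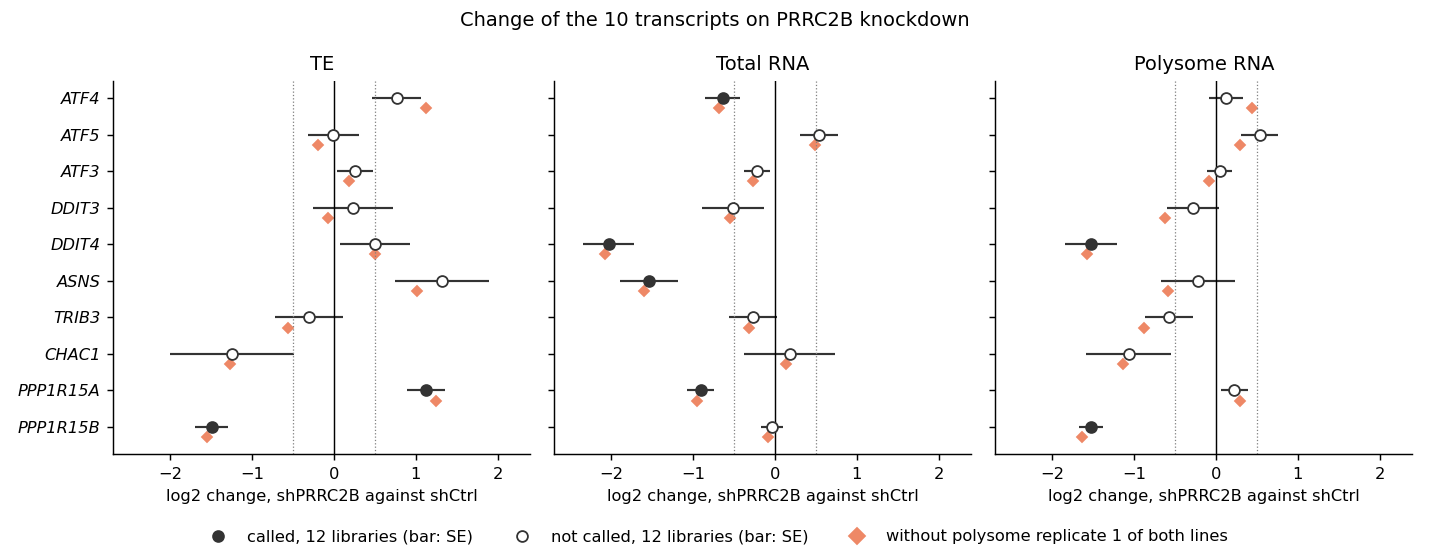
The log2 change in TE, total RNA and polysome RNA of shPRRC2B against shCtrl cells, with its SE, is filled where called; orange diamonds are the values without replicate 1 of the polysome libraries, and dotted lines stand at -0.5 and 0.5. PPP1R15B is called lower in TE (-1.49) and polysome RNA (-1.53) but lies at -0.04 in total RNA, DDIT4 is called lower in total (-2.03) and polysome RNA (-1.53), and PPP1R15A is called lower in total RNA (-0.91) and higher in TE (1.13).

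ATF4 (chr22:39519695-39522683, plus strand) encodes the transcription factor at the head of the axis. In total RNA it stood at 517, 543 and 488 CPM in shCtrl cells and at 317, 332 and 344 CPM in shPRRC2B cells. All libraries of the knockdown line lay below those of the control line. The log2 change was -0.64 ± 0.21 (SE, adjusted p = 0.0256), and it was lost from the calls when any of 5 of the 6 total RNA libraries was left out (adjusted p between 0.0609 and 0.0888). Its polysome levels were 3309, 2587 and 2536 CPM in shCtrl cells and 1785, 3553 and 3857 CPM in shPRRC2B cells. The lowest value of the knockdown line, in its first library, lay below the control libraries and the other 2 above them, so the groups overlapped (log2 change 0.12 ± 0.21, adjusted p = 0.66). The ratio of mean polysome to mean total CPM was 5.45 in shCtrl and 9.26 in shPRRC2B cells. The TE change was 0.77 ± 0.30 (adjusted p = 0.0641) and was not called. Without the first polysome library of both lines it was 1.13 (adjusted p = 6.52e-06), without that of shPRRC2B cells alone 0.98 (adjusted p = 0.00151) and without that of shCtrl cells alone 0.85 (adjusted p = 0.0203), all of them called. Over the 12 fits that each left out 1 library the adjusted p lay between 0.00151 and 0.209. The call was also made with libraries scaled by total counts (0.80, adjusted p = 0.0425), but with the length trend removed the change of ATF4 in TE was 0.42 (adjusted p = 0.29) and was not called.

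ATF5, a factor of the same family that acts in the mitochondrial stress response, was less abundant. Its total RNA level was between 7.26 and 8.58 CPM in shCtrl cells and between 11.1 and 12.2 CPM in shPRRC2B cells, without overlap. The log2 change of 0.54 ± 0.23 had an adjusted p of 0.0775 and was not called. Polysome levels of ATF5 were 21.5, 13.8 and 15.5 CPM and 35.3, 17.3 and 20.9 CPM, with the first library highest in both lines and the groups overlapping (0.53 ± 0.23, adjusted p = 0.0685). It was called higher there without the first shCtrl polysome library (0.67, adjusted p = 0.0301) or without the second of shPRRC2B cells (0.65, adjusted p = 0.0348). The TE change was -0.01 ± 0.31. Exons of NUP62 and IL4I1 on the other strand and of a miRNA cover 13.5% of the canonical ATF5 exons. Since no strand option is stated, reads there cannot be told apart by strand.

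ATF3, a repressor and activator induced by many stresses, was called in none of the 3 comparisons, and in none of the fits that left out 1 library. Its total RNA level lay between 45.0 and 53.6 CPM in shCtrl cells and between 40.0 and 42.5 CPM in shPRRC2B cells, with a log2 change of -0.22 ± 0.16 (adjusted p = 0.302). In polysome RNA the range was 50.4 to 76.7 CPM in shCtrl and 54.9 to 76.3 CPM in shPRRC2B cells, with the first library lowest in both. The log2 change was 0.04 ± 0.16 in polysome RNA (adjusted p = 0.864) and 0.26 ± 0.22 in TE (adjusted p = 0.417).

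DDIT3 was at 5.17, 4.75 and 5.32 CPM in total RNA of shCtrl cells and at 2.94, 3.79 and 3.89 CPM in that of shPRRC2B cells. The groups did not overlap, and the log2 change of -0.51 ± 0.38 was not called (adjusted p = 0.315). In a fit of the 6 total RNA libraries alone it was called (-0.55, adjusted p = 0.0107). In polysome RNA it reached 23.6, 84.9 and 94.1 CPM in shCtrl cells and 42.8, 58.2 and 65.5 CPM in shPRRC2B cells. The first shCtrl polysome library was the lowest of the 6, and the other 2 shCtrl libraries the highest. The change was -0.28 ± 0.32 (adjusted p = 0.5) over all libraries and -0.78 (adjusted p = 0.000393, called) without the first shCtrl polysome library, where the call in total RNA was also made (-0.56, adjusted p = 0.0179). In TE the change was 0.23 ± 0.49, and without that library -0.22. Exons of MARS1 and MBD6 on the other strand and of another protein-coding gene on the same strand cover 35.9% of the canonical DDIT3 exons. MARS1 held between 1299 and 6933 counts in a library, against 63 to 848 for DDIT3.

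DDIT4 (chr10:72273919-72276036, plus strand) had the largest change of the 10 in total RNA. It was at 236, 294 and 203 CPM in shCtrl cells and at 64.8, 62.3 and 52.7 CPM in shPRRC2B cells, and the mean was 4.08-fold higher in shCtrl cells. The log2 change was -2.03 ± 0.31 (adjusted p = 0.000109), lower than that of all but 2.07% of genes tested. The polysome libraries held 72.9, 160 and 161 CPM of DDIT4 in shCtrl cells and 21.5, 66.7 and 48.0 CPM in shPRRC2B cells. The first library was lowest in both lines, yet all libraries of shPRRC2B cells lay below all of shCtrl cells (-1.53 ± 0.32, adjusted p = 0.000801). The call in both fractions was made with each library left out in turn. The TE change of 0.50 ± 0.43 was not called (adjusted p = 0.418).

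TRIB3, which inhibits the kinase AKT and ATF4 itself, was at 30.7, 33.3 and 30.9 CPM in total RNA of shCtrl cells and at 27.6, 25.9 and 25.2 CPM in shPRRC2B cells (log2 change -0.27 ± 0.30, adjusted p = 0.513). In polysome RNA the values were 50.6, 168 and 168 CPM against 63.7, 94.9 and 99.7 CPM. The first shCtrl polysome library was again the lowest of the 6 and the other 2 the highest. The polysome change was -0.58 ± 0.29 (adjusted p = 0.117), and without that library it was -1.06 (adjusted p = 7.39e-06) and the TE change was -0.74 (adjusted p = 0.00638), both called. Over all libraries the TE change was -0.31 ± 0.42 and not called.

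CHAC1 had a low first polysome library as well. Its total RNA level was between 6.10 and 7.36 CPM in shCtrl cells and between 6.49 and 8.58 CPM in shPRRC2B cells, which overlapped. In polysome RNA it was at 16.5, 85.9 and 82.0 CPM in shCtrl cells and at 6.19, 50.6 and 31.2 CPM in shPRRC2B cells, so that the other 2 libraries of shCtrl cells lay above the remaining 4. The first library of each line was lower than the mean of the other 2, by 5.09-fold in shCtrl and 6.61-fold in shPRRC2B cells, more than for any other member in the latter. The polysome change was -1.07 ± 0.52 (adjusted p = 0.105) and the TE change -1.25 ± 0.76 (adjusted p = 0.24). Polysome RNA was called lower without the first shCtrl polysome library (-1.63, adjusted p = 0.00272) or without the second of shPRRC2B cells (-1.80, adjusted p = 0.0212), and TE without the former (-1.76, adjusted p = 0.0243). Both were also called without the first polysome library of both lines (-1.13 in polysome RNA and -1.27 in TE) and with every gene that had a count (-1.16 and -1.30). Of 13 other settings, these 2 among them, 5 changed the outcome of CHAC1 in polysome RNA and 2 in TE.

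ASNS, asparagine synthetase, was at 11.3, 12.7 and 10.0 CPM in total RNA of shCtrl cells and at 4.15, 3.40 and 4.15 CPM in that of shPRRC2B cells. The groups did not overlap, and the log2 change was -1.54 ± 0.36 (adjusted p = 0.00294). In polysome RNA it was at 0.656, 2.71 and 4.55 CPM and at 1.55, 2.01 and 3.14 CPM, with overlap. The TE change was 1.33 ± 0.57 (adjusted p = 0.0964). It was called without the third shCtrl polysome library (1.93, adjusted p = 0.0146) and without the first polysome library of both lines (1.01, adjusted p = 0.0479). It was also called with every gene that had a count (1.28, adjusted p = 0.0265) and in limma (1.30, adjusted p = 0.0489). In GENCODE 44 the exons of a long noncoding gene on the same strand cover 99.5% of the canonical ASNS exons, and under the stated options a read pair that fits both genes would not be counted. The reads were counted on GENCODE 38, whose overlap was not checked here, and that noncoding gene was not matched to a name in the count table, so how many ASNS reads were left out is unknown. ASNS held as few as 7 counts in a library, and no more than 348.

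PPP1R15A (chr19:48872212-48876059, plus strand) encodes GADD34, the stress-induced subunit that directs protein phosphatase 1 to eIF2. In total RNA it was at 26.2, 30.7 and 24.0 CPM in shCtrl cells and at 14.6, 16.2 and 12.5 CPM in shPRRC2B cells. No knockdown library reached the level of a control library, and the mean was 1.87-fold higher in shCtrl cells (log2 change -0.91 ± 0.16, adjusted p = 0.000465). Among polysome libraries the values were 44.1, 29.3 and 31.7 CPM and 42.6, 38.1 and 41.9 CPM. Here the 3 knockdown libraries lay between the first shCtrl library, the highest of the 6, and the other 2 (0.22 ± 0.17, adjusted p = 0.296). The ratio of mean polysome to mean total CPM was 1.30 in shCtrl and 2.84 in shPRRC2B cells, and the TE change was 1.13 ± 0.23 (adjusted p = 0.00197). This value lay between 0.96 and 1.29 with each library left out in turn, and the call was made each time.

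PPP1R15B (chr1:204396492-204411887, minus strand) encodes CReP, the constitutive counterpart of GADD34. In total RNA the lines were nearly equal, with 92.7, 91.6 and 89.8 CPM in shCtrl and 88.9, 88.8 and 89.4 CPM in shPRRC2B cells (log2 change -0.04 ± 0.14, adjusted p = 0.856). In polysome RNA it was at 52.7, 58.4 and 58.2 CPM in shCtrl cells and at 18.5, 24.8 and 15.2 CPM in shPRRC2B cells. All shPRRC2B libraries lay below the lowest shCtrl library, and the first libraries did not stand apart. The change was -1.53 ± 0.15 (adjusted p = 5.63e-07), or 2.89-fold higher in shCtrl cells by the means. The ratio of mean polysome to mean total CPM was 0.618 in shCtrl and 0.219 in shPRRC2B cells, and the TE change was -1.49 ± 0.20 (adjusted p = 7.51e-05), lower than that of all but 7.68% of genes. With each library left out it lay between -1.73 and -1.39 and was called each time. The 2 targeting subunits differed in sign in TE, while PPP1CA, PPP1CB and PPP1CC, its catalytic subunits, had TE changes of -0.38, -0.96 and -0.62, of which the last 2 were called lower. PPP1CC was added to the genes named after its value was seen.

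Genes upstream and downstream of ATF4 were taken from lists by role. Over all genes tested, 16.4% were called lower and 10.7% higher in TE, 14.1% and 14.9% in total RNA, and 21.4% and 18.4% in polysome RNA. Among the 4 kinases of eIF2 alpha, EIF2AK2, the double-stranded RNA sensor PKR, was called lower in TE (-1.75 ± 0.37, adjusted p = 0.00216) and in polysome RNA (-1.14 ± 0.28). EIF2AK1, the heme-regulated kinase, was called lower in total (-0.52 ± 0.13) and polysome RNA (-0.86 ± 0.13). EIF2AK3 (PERK), the sensor of unfolded proteins in the endoplasmic reticulum (ER), had changes of -0.17 in TE, 0.07 in total and -0.09 in polysome RNA, and EIF2AK4 (GCN2), the amino acid sensor, of -0.26, 0.28 and 0.03. None of these 6 values was called.

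Of the 8 subunits of eIF2 and of its exchange factor eIF2B, 3 were called lower in TE, and these were the 3 subunits of eIF2 itself. The count was 2 with the replicate block, with scaling by total counts and with TMM within each fraction. Over all genes 2807, 2620 and 2706 of 18166 were called lower in these fits. Without the first polysome library of both lines it was 5, against 22.0% of genes in that fit. EIF2S3, the gamma subunit, changed by -1.41 ± 0.25 (adjusted p = 0.000696), EIF2S1, the phosphorylated alpha subunit, by -0.66 ± 0.23 (adjusted p = 0.0439) and EIF2S2, the beta subunit, by -0.63 ± 0.19 (adjusted p = 0.0217). The TE changes of EIF2B1, EIF2B2, EIF2B3, EIF2B4 and EIF2B5, the subunits of the exchange factor, were 0.12, -0.43, -0.37, -0.54 and 0.39, and were not called. In total RNA EIF2S1 (0.52) and EIF2B4 (0.70) were called higher, and in polysome RNA EIF2S3 was called lower (-1.22) and EIF2B5 higher (0.51). Of 8 other regulators of eIF2 phosphorylation 4 were called lower in TE, with the largest change in DNAJC3, an inhibitor of PERK (-1.79 ± 0.32, adjusted p = 0.000742), and 5 in polysome RNA. The count in polysome RNA was 3 with TMM within each fraction or with the length trend removed, against 3796 of 18166 and 3230 of 15762 genes.

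Amino acid and one-carbon genes known as ATF4 targets were lower in polysome RNA of shPRRC2B cells. Of 19 tested, 16 were called lower in polysome RNA (21.4% of all genes), 7 in total RNA (14.1% of all genes) and 4 in TE (16.4% of all genes). Their median change was -1.01 in polysome RNA, -0.38 in total RNA and -0.60 in TE, against -0.01, 0.04 and -0.03 for all genes. SLC7A11, the cystine transporter, changed most in polysome RNA (-2.31 ± 0.54, adjusted p = 0.00228), from a mean of 21.9 ± 13.2 CPM (SD, n = 3) in shCtrl to 4.47 ± 3.94 CPM in shPRRC2B cells. PSAT1, an enzyme of serine synthesis, was called lower in polysome (-2.00 ± 0.32) and total RNA (-1.01 ± 0.31), and ALDH1L2, an enzyme of mitochondrial folate metabolism, in total RNA (-0.98 ± 0.23). The amino acid transporters SLC7A5 (-1.91 ± 0.44) and SLC38A2 (-1.66 ± 0.26) were called lower in TE, while their total RNA changes of 0.26 and 0.17 were not called. In the first polysome library of shCtrl cells all 19 genes lay below the mean of the other 2, with a median difference of -1.40, and in that of shPRRC2B cells 17 did, with a median of -0.64. Without both libraries 17 of the 19 were called lower in polysome RNA and 12 in TE, against 25.3% and 22.0% of genes in that fit.

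Among 11 genes of tRNA synthetases and tRNA export known as ATF4 targets, 8 were called lower in TE and 8 in polysome RNA, but 2 in total RNA. EPRS1, the glutamyl-prolyl-tRNA synthetase, changed by -1.45 ± 0.21 in TE (adjusted p = 0.000128), from 145 ± 27.9 to 54.6 ± 8.78 CPM in polysome RNA, with 310.5 ± 8.68 and 319 ± 16.3 CPM in total RNA. NARS1 was called lower in TE as well (-1.05 ± 0.23). YARS1 was called lower in all 3 comparisons (-0.74 in TE, -0.82 in total RNA and -1.56 in polysome RNA), and CARS1 in total RNA (-1.12 ± 0.39), where its mean in shCtrl cells was 9.85 ± 7.19 CPM. With the length trend removed 5 of the 11 were called lower in TE, against 2012 of 15762 genes in that fit. In the first polysome library of shCtrl cells 10 of the 11 lay below the mean of the other 2 libraries (median difference -0.84), and in that of shPRRC2B cells 8 did (-0.34). Without both libraries 10 were called lower in TE and 8 in polysome RNA, against 22.0% and 25.3% of genes in that fit.

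The 14 stress and growth genes tested, known as targets of ATF4 or CHOP, moved both ways. In total RNA 6 were called lower and 2 higher, and in polysome RNA 7 and 2. In polysome RNA 3 were called lower and 1 higher with the length trend removed, against 3230 and 2762 of 15762 genes. In the first polysome library 11 of the 14 lay below the other 2 in shCtrl cells (median difference -0.41) and 12 in shPRRC2B cells (-0.31). Without both libraries 15 genes of this list were tested. Of these, 4 were called higher in TE and 3 lower, against 14.9% and 22.0% of genes in that fit. STC2, a secreted glycoprotein induced by stress (-1.58 ± 0.25), and BBC3, the pro-apoptotic protein PUMA (-1.54 ± 0.18), were called lower in total RNA. MAP1LC3B, a core protein of autophagy, was called higher in total (1.14 ± 0.13) and polysome RNA (1.25 ± 0.13), as was the stress cytokine GDF15 (0.95 ± 0.24 and 0.70 ± 0.22). GDF15 was low in total RNA, at 1.84 ± 0.749 CPM (SD, n = 3) in shCtrl and 3.69 ± 0.233 CPM in shPRRC2B cells. VLDLR (-1.37 ± 0.37) and NUPR1 (-1.22 ± 0.44) had the largest falls in polysome RNA. In TE, VEGFA (1.24 ± 0.38) and BBC3 (0.75 ± 0.25) were called higher, both with lower total RNA, and TNFRSF10B (-0.82 ± 0.21) and ERO1A (-0.63 ± 0.19) lower. Of the 5 genes of the C/EBP family tested, partners of ATF4 on DNA among them, 1 was called in TE: CEBPD rose by 1.22 ± 0.28, with lower total RNA (-0.56 ± 0.20) and higher polysome RNA (0.66 ± 0.19).

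Among 11 other mRNAs known for regulatory uORFs, 1 was called higher in TE and 3 lower, with a median of -0.17. With the length trend removed 1 was called higher and 1 lower, against 1488 and 2012 of 15762 genes, and the median was -0.08. SAT1, which encodes an enzyme of polyamine breakdown, was called higher (1.70 ± 0.17, adjusted p = 1.11e-05), with total RNA of 36.9 ± 3.46 CPM in shCtrl and 18.5 ± 0.202 CPM in shPRRC2B cells and polysome RNA of 77.3 ± 4.48 and 126 ± 13.3 CPM. EPRS1 and SLC7A1, the arginine transporter, which also stand in the lists above, were called lower (-1.45 and -1.22), as was AZIN1, the antizyme inhibitor (-0.77). IFRD1, whose mRNA is known to be degraded through its uORF, was called lower in total (-1.51 ± 0.20) and polysome RNA (-1.09 ± 0.20) with a TE change of 0.42 that was not called. SLC35A4 was called higher in total RNA (0.79 ± 0.14), and AMD1, an enzyme of polyamine synthesis, in polysome RNA (0.52 ± 0.16). Both signs were also found among the 6 members with an upstream ATG, of which PPP1R15A was called higher and PPP1R15B lower.

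**Figure D5:**
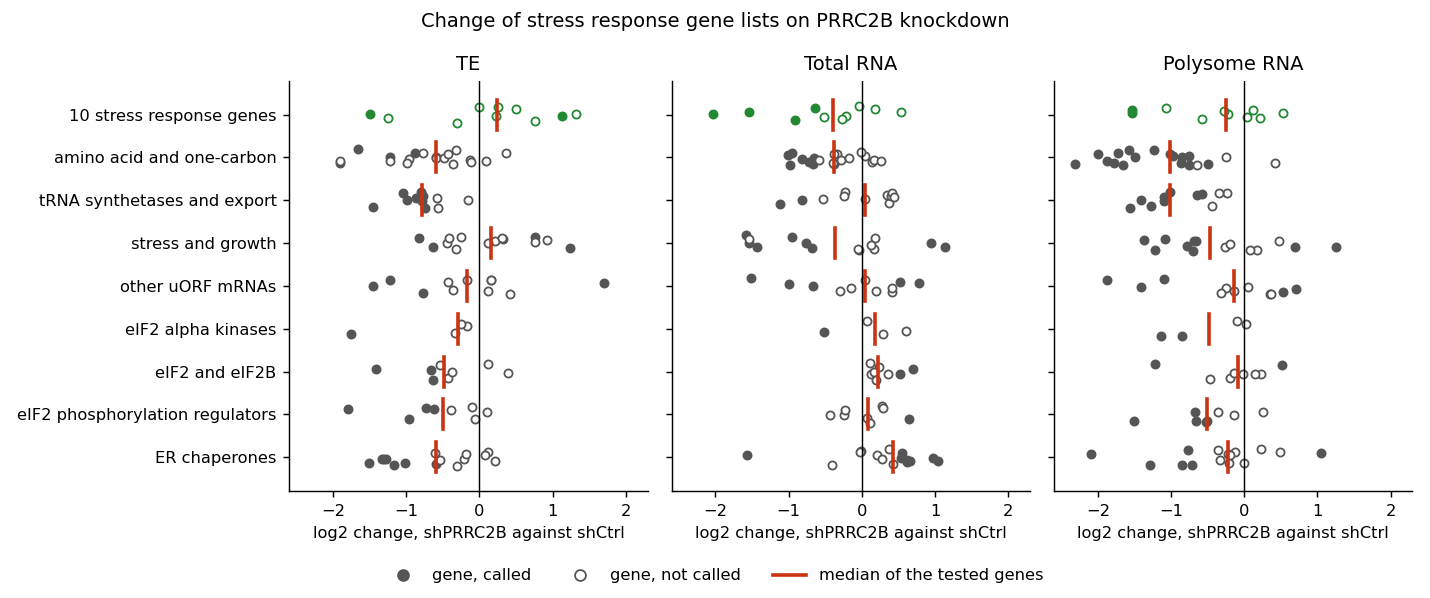
Each point is the log2 change of a gene in TE, total RNA or polysome RNA between shPRRC2B and shCtrl cells, filled where called, and red bars are medians of the genes tested in a list. In polysome RNA the medians of the amino acid and tRNA synthetase lists lie at -1.01 each, that of the 10 stress response genes at -0.25, and in total RNA the ER chaperones have a median of 0.43.

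Genes of the other branches of the unfolded protein response were listed for comparison. Of 15 ER chaperone genes driven by ATF6 and XBP1, 7 were called higher and 1 lower in total RNA, and 7 were called lower in TE. With scaling by total counts or TMM within each fraction 4 were called higher in total RNA, against 2143 and 2357 of 18166 genes. CALR, calreticulin, rose in total RNA by 1.04 ± 0.12, from 251 ± 8.37 to 516 ± 29.4 CPM, and HSPA5, the chaperone BiP, by 0.62 ± 0.13. HSPA5 was called lower in TE (-1.33 ± 0.19) and in polysome RNA (-0.71 ± 0.14), and HSP90B1, the chaperone GRP94, in TE (-1.51 ± 0.18) and polysome RNA (-1.29 ± 0.13) with a total RNA change of 0.21. EDEM1, a factor of ER-associated degradation, was the gene called lower in total RNA (-1.56 ± 0.15), and it was also lower in polysome RNA (-2.10 ± 0.17). SDF2L1 was higher in total (0.97 ± 0.28) and polysome RNA (1.05 ± 0.28).

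Promoters were searched for TGATGNAA on either strand, the core of the composite C/EBP-ATF or amino acid response element, from 250 bases before to 50 after each RefSeq start (GRCh38.p14). All 10 genes had at least 1 start in the table, with 18 windows in all, and 4 windows of 4 genes held a match, against 3.62% of the 35116 windows in the table. The 30 bases around each match are shown with the motif in capitals, because this is the element through which ATF4 is known to act on such genes. They are written along the strand of the gene, and a motif on the opposite strand appears as its reverse complement.
ATF3, chr1:212565205-212565234, plus strand: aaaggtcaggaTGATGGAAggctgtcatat
ASNS, chr7:97872458-97872487, minus strand: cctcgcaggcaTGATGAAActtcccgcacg
CHAC1, chr15:40953251-40953280, plus strand: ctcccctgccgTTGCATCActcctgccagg
PPP1R15B, chr1:204412026-204412055, minus strand: cccgccccggcTGATGCAAcctcacgctgc

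Of the 4 genes with a match, ASNS was called lower in total RNA of shPRRC2B cells (-1.54), while ATF3 (-0.22), CHAC1 (0.18) and PPP1R15B (-0.04) were not called. Of the 6 genes without one in these windows, DDIT4, PPP1R15A and ATF4 were called lower, and ATF5, DDIT3 and TRIB3 were not.

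The genes whose levels followed those of ATF4 most closely over the 12 libraries, by Pearson's r of log2(CPM + 1) among 10050 genes whose mean reached 10 CPM, were MINCR, TMUB1, BCRP2, CTC-338M12.5 and UIMC1, with r between 0.994 and 0.995. All 5 had higher means in polysome than in total RNA of both lines: TMUB1 had means of 129 and 411 CPM in shCtrl cells and of 89.4 and 437 CPM in shPRRC2B cells. Closest to DDIT4 were SGPP2 (0.98), PTOV1, ATG7, TPTEP2 and PGM1 (0.94 to 0.96), which had lower means in shPRRC2B cells in both fractions, SGPP2 from 22.8 to 10.2 CPM in total and from 14.4 to 6.88 CPM in polysome RNA. The points share their libraries and the 2 contrasts of line and fraction, so a high r states only that the levels followed the same groups.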

How the data were processed

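RNA from 2 fractions of 2 HEK293T lines was measured in 12 libraries, 3 biological replicates per group as the sample titles give them, with groups taken from the labels. The deposited values are raw read counts per gene name. The authors trimmed reads with Trimmomatic 0.36, aligned them to GRCh38 with HISAT2 2.1.0 (versions per the submitters' processing notes) and counted read pairs on GENCODE 38 exons with featureCounts of Subread 2.0.1. A pair that fits exons of several genes was not counted, and no strand option is stated, so overlapping genes are uncertain. The titles call the replicates biological and say no more, so p-values measure the spread between these libraries.

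From the counts, edgeR 4.0.16 (R 4.3.3) filtered genes (filterByExpr, minimum count 10), scaled all 12 libraries by TMM and fitted a quasi-likelihood model of the 4 groups. TE was the interaction of line and fraction. P-values were adjusted by Benjamini-Hochberg over 18166 genes, and genes were called at an adjusted p below 0.05 when the log2 change exceeded 0.5 in size. SEs were derived from the F statistic. The script was tested on simulated data. Alternatives were DESeq2 1.42.0, limma 3.58.1, other scalings and filters, a replicate block, a correction for transcript length (available for 86.8% of genes tested), and each library left out. uORFs and overlaps were read from GENCODE 44 and promoters from RefSeq, so transcript models differ from those used for counting. Named were the 10 genes and PRRC2B, all eIF2 kinases, eIF2 and eIF2B subunits, the 2 largest called rises and falls of each list in each comparison, and the 5 genes most like ATF4 and DDIT4. The members and lists were chosen with earlier results of these data known.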

Additional observations from a re-analysis of the deposited data

Results flagged for a closer look

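The polysome-to-total ratio of 2 of the 10 genes differed between the lines by the interaction test of edgeR (3 libraries per group). For PPP1R15A the log2 difference of shPRRC2B from shCtrl cells was 1.13 (adjusted p = 0.00197), and for PPP1R15B it was -1.49 (adjusted p = 7.51e-05). For PPP1R15A the ratio changed with lower total RNA and overlapping polysome RNA, and for PPP1R15B with lower polysome RNA at nearly equal total RNA.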

How the results depend on the processing

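For the 10 genes singly, 588 of 665 values from other settings and 560 of 600 from fits without 1 library kept their direction and their side of the threshold. Part of this was fixed in advance. The setting without a minimum log2 change reused the values of the main fit. A library outside a comparison could alter its values only through the filter, the scaling and the shared spread. In TE, 2 genes were called higher with scaling by total counts, TMM within each fraction, at least 10 counts in every library or limma. Over all genes 2119, 2227 and, with limma, 2367 of 18166 were called higher, and 2017 of 12381 with 10 counts in every library. With every gene that had a count 3 were higher and 2 lower, against 1837 and 3245 of 36618 genes. Without the first polysome library of both lines (chosen after seeing the data) 3 were higher and 3 lower in TE and 5 lower in polysome RNA, the TE change of DDIT3 was -0.075 and of PRRC2B -0.32, and ATF3 in polysome RNA was at -0.085. ATF5 in TE was at 0.055 with scaling by total counts, 0.057 with TMM within fractions and 0.058 with 10 counts in every library. In the last of these 1 of the members was called higher in polysome RNA, against 2631 of 12381 genes. With every gene that had a count 4 were lower in polysome RNA, against 4582 of 36618 genes, and ATF3 was at -0.046. With the length trend removed 4 were lower in polysome RNA, against 3230 of 15762 genes. In that fit PRRC2B in TE was called (0.93), DDIT3 in TE was at -0.25, and in polysome RNA ATF4 was at -0.18 and ATF3 at -0.17. For polysome against total RNA, scaling by total counts or TMM within fractions gave 4 higher and 5 lower in shCtrl cells, and 4 higher and 3 lower in shPRRC2B cells. With the former, 3211 of 18166 genes were called higher and 10675 lower in shCtrl cells, and 4283 and 10204 in shPRRC2B cells. In these settings ATF3 was at -0.55 and PPP1R15A at -0.62 or -0.63 in shCtrl, and ATF3 at -0.24 or -0.23 in shPRRC2B cells. Without the length trend 4 were higher and 3 lower in shPRRC2B cells, against 5089 and 5629 of 15762 genes. ATF3 was then at -0.26 in shCtrl and -0.22 in shPRRC2B cells, and PPP1R15B at 0.44 in shCtrl cells. In shPRRC2B cells 3 were lower with every gene that had a count (9124 of 36618 genes). There were 2 with the 6 libraries alone (7322 of 16855 genes) or without the first polysome libraries (8131 of 18813 genes). The causes of these moves were not tested.

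Over all genes, replicate numbers showed little pairing: deviations of same-numbered libraries correlated between -0.13 and 0.11 (1 of 18 pairs over 0.1). The 6 pairs of total with polysome RNA of the same line lay between 0.012 and 0.066, and pairs of other numbers between -0.15 and 0.18. Whether same-numbered libraries share a culture cannot be told from these values. With the replicate block, CHAC1 in polysome RNA was called lower (-1.10, adjusted p = 0.0468), and no other single call of the 10 genes changed. With the block and no length trend DDIT3 in TE was at -0.069, PRRC2B in TE at 0.93, ATF4 and ATF3 in polysome RNA at -0.21 and -0.16, ATF3 at -0.28 in shCtrl and -0.23 in shPRRC2B cells between fractions and PPP1R15B at 0.44, with 4 lower in polysome RNA and 4 higher and 3 lower between fractions in shPRRC2B cells. Over all genes in that fit, 3134 of 15762 were lower in polysome RNA. Between fractions in shPRRC2B cells 5016 were higher and 5594 lower.

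With 1 library left out, 1 to 2 genes were higher and 1 to 3 lower in TE, 3 to 5 lower in total RNA and 0 to 1 higher and 2 to 5 lower in polysome RNA. Between fractions 5 to 6 were higher and 2 to 3 lower in shCtrl cells. In shPRRC2B cells 6 to 7 were higher and 1 to 2 lower. These fits tested 18776 to 19002 genes. Of these, 1285 to 2532 were higher and 2333 to 3716 lower in TE, and 1916 to 3194 lower in total RNA. In polysome RNA 2493 to 3353 were higher and 3784 to 4647 lower. The 3 lower in TE and 5 in polysome RNA came without the first shCtrl polysome library, where these all-gene counts peaked. Between fractions 5718 to 5960 genes were higher and 7030 to 7556 lower in shCtrl cells. In shPRRC2B cells 6427 to 6773 were higher and 7655 to 8234 lower. The sign turned in TE for ATF5 (-0.43 to 0.18), DDIT3 (-0.22 to 0.50) and PRRC2B (-0.15 to 0.30), and in polysome RNA for ATF4 (-0.17 to 0.29), ATF3 (-0.21 to 0.064) and ASNS (-0.79 to 0.33). Depth limits ASNS most, with as few as 7 counts.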

Other observations

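Lists of immediate early and p53 target genes were measured beside the stress response. Over all genes tested, 16.4% were called lower and 10.7% higher in TE, 14.1% and 14.9% in total RNA, and 21.4% and 18.4% in polysome RNA. Of 9 immediate early genes tested, FOS was called higher in TE (2.19 ± 0.55, adjusted p = 0.00685 in edgeR's quasi-likelihood test), with lower total RNA (-0.97 ± 0.36) and higher polysome RNA (1.22 ± 0.41). FOS was low throughout, with total RNA of 3.55 ± 0.577 CPM (SD, n = 3) in shCtrl and 1.81 ± 0.540 CPM in shPRRC2B cells. Its polysome RNA was at 1.45 ± 0.448 and 3.32 ± 1.46 CPM. DUSP1, a phosphatase of MAP kinases, was called higher in total (1.55 ± 0.20) and polysome RNA (1.92 ± 0.21), and IER2 lower in total RNA (-0.61 ± 0.20). Without the first polysome library of both lines 4 of the 9 were called higher in TE, against 14.9% of genes in that fit.

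Of 10 p53 target genes, 4 were called higher and 2 lower in total RNA, against 14.9% and 14.1% of all genes tested. CDKN1A, the cell cycle inhibitor p21, was higher in total (1.13 ± 0.17) and polysome RNA (0.98 ± 0.17). MDM2, the ligase that degrades p53, was higher in total RNA (1.31 ± 0.20) and lower in TE (-2.14 ± 0.30), while GADD45A was lower in total RNA (-0.82 ± 0.18) and higher in TE (0.86 ± 0.26). SESN1 was lower in TE (-0.68 ± 0.23). BBC3, named above among the targets of ATF4 or CHOP, counts in this list as well. It had the largest fall of the 10 in total RNA (-1.54) and was called higher in TE. No p53 target was called higher in TE with the length trend removed, GADD45A included, and 1 was called lower. In polysome RNA 1 was then called in each direction, against 4 higher and 2 lower without that correction. Of 15762 genes in that fit, 1488 were called higher and 2012 lower in TE, and 2762 and 3230 in polysome RNA.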
